A study of Mus musculus with 12 samples.

Results

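The collagen genes were taken as every row of the deposited count table whose symbol is Col, a number, the letter a and a number, which gave 44 of 21930 genes. They were described as 8 fibrillar collagens (Col1a1, Col1a2, Col3a1, Col5a1, Col5a2, Col5a3, Col24a1 and Col27a1), 8 basement membrane collagens (Col4a1 to Col4a6, Col15a1 and Col18a1), 6 cartilage-type collagens (Col2a1, Col9a1, Col9a2, Col9a3, Col11a1 and Col11a2) and 22 others. RNA-seq was available for 12 wild type male C57BL/6J mice, 3 in each of 4 groups, from eye cups labelled as the complex of retinal pigment epithelium (RPE), choroid and sclera. From 8 weeks of age the mice ate ad libitum (AL) or fasted on alternate days (IF) for 12 weeks. They were then injected intraperitoneally with PBS or with 25 mg per kg of sodium iodate (NaIO3), an oxidant that damages the RPE. Each diet went on after the injection, and eyes were taken 7 days later. All 4 groups share strain, sex and injection route, so the groups AL + PBS, IF + PBS, AL + NaIO3 and IF + NaIO3 differ by diet and injected agent. The methods collect both eye cups of a mouse together for PCR and do not say so for sequencing, and p-values measure the spread between these libraries.

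Collagens are triple helices of 3 alpha chains, each gene giving 1 chain. Fibrillar collagens, chiefly types I and III, build the rope-like fibrils of the sclera, the choroidal stroma and vessel walls. Type IV collagen forms the sheet of basement membranes, here Bruch's membrane under the RPE, the inner limiting membrane of the retina and the capillary walls, where types XV and XVIII link the sheet to the stroma. Types II, IX and XI form thin mixed fibrils in cartilage and in the vitreous, the gel that fills the eye. The remaining collagens form beaded filaments (type VI), anchoring fibrils (type VII), short-chain networks (types VIII and X), fibril-associated collagens or membrane-spanning chains.

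Depth ran from 26364665 to 43046950 counts a library, with a median of 31822705. The library of AL + NaIO3 replicate 3 stood apart. It had the highest level of 24 of 43 collagens tested, against 26.1% of all genes, and its summed level of 9 scleral and choroidal fibroblast markers was 505 FPKM against 23.3 to 68.6 FPKM in the other 11 libraries. FPKM are read counts that the authors scaled to gene length and library size. In the same library 9 rod photoreceptor markers summed to 6381 FPKM against 11416 to 17200 FPKM elsewhere. The sums of endothelial, mural, macrophage, Müller cell and astrocyte, ciliary epithelium, and cartilage and bone markers were at their highest. Single markers highest there in CPM were 8 of 8 endothelial, 7 of 7 mural, 7 of 8 macrophage and 5 of 7 Müller cell and astrocyte. They were also 5 of 6 ciliary epithelium markers, while Aqp1 was at its lowest (38.1 FPKM). Of the cartilage and bone markers only 1 of 8 was highest there, and Ucma was at its lowest (0.20 FPKM). These photoreceptor sums show that the libraries held neural retina RNA, which the label does not name, beside RPE markers at 508 to 1407 FPKM. The fitted log2 fold changes of collagens that involve AL + NaIO3 are therefore given with and without replicate 3, and in bulk RNA more cells of a type and more RNA per cell cannot be told apart. Values without it rest on replicates 1 and 2 of that group, and its replicate 1 was the lowest library for 17 of 44 collagens. IF + PBS replicate 1 was the lowest for 9. No share of all genes is given for these counts.

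The RefSeq table of promoters (build GRCm38.p6, which holds the coordinates of all 44 genes of the files) had entries for 35 of the 44 genes, in 38 windows. 3 motifs were searched on both strands in the 250 bases before each start. The first was TATAAA, known as the TATA box. The second, the CCAAT box, was searched by its 5 letters. The third was GGGCGG, known as the GC box. Read on the other strand, CCAAT can share its last bases with a GC box, and both were then counted. A GC box stood in 57.9% of the 38 collagen windows and in 32.7% of all 32851 windows. CCAAT stood in 34.2% and 33.8%, and TATAAA in 13.2% and 12.4%. These are counts of letters, not of sites in use.

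In the files' coordinates Col1a1 lies at chr11:94936224-94953042, Col1a2 at chr6:4504814-4541544, Col3a1 at chr1:45311538-45349706, Col9a1 at chr1:24177610-24252684 and Col18a1 at chr10:77052178-77166548. 5 stretches are shown because the results return to these genes, in lower case with any of the 3 motifs in capitals. Col9a1 has 2 starts 17593 bases apart in RefSeq, the second inside the gene, and gene counts do not separate them. The first window is chr1:24177360-24177609 and the second chr1:24194953-24195202, both on the plus strand. The window of the fibrillar gene Col3a1 is chr1:45311288-45311537 on the plus strand. Col4a3 and Col4a4 start back to back, and the whole stretch between them, chr1:82586850-82586920, has 71 bases (GC content 69.0%), printed on the minus strand, which is that of Col4a4. Col4a1 and Col4a2 also start back to back and share the 22 bases chr8:11312805-11312826, printed on the minus strand, which is that of Col4a1.
Col9a1 first start: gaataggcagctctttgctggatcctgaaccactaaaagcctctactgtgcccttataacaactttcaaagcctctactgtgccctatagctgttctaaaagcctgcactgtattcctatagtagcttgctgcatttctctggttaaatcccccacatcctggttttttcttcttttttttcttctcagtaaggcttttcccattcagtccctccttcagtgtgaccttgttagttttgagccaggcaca
Col9a1 second start: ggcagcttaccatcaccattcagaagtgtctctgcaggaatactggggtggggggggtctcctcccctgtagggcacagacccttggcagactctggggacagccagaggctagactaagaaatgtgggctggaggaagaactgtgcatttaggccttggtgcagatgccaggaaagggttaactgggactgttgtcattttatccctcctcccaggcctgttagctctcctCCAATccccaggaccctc
Col3a1: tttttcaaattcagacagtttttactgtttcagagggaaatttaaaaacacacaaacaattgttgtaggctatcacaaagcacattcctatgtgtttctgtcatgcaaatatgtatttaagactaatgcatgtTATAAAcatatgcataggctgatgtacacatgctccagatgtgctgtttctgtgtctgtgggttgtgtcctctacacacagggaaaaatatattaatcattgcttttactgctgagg
Col4a3 and Col4a4: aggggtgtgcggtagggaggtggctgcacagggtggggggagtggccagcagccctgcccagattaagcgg
Col4a1 and Col4a2: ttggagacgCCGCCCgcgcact
Of these stretches, that of Col3a1 holds 1 TATAAA, the second of Col9a1 holds 1 CCAAT, and that shared by Col4a1 and Col4a2 holds 1 GC box. The other 2 hold none of the 3 motifs.

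Levels between genes were compared in FPKM. In the AL + PBS eyes the highest mean was that of Col23a1, a membrane-spanning collagen, at 11.97 ± 0.50 FPKM (SD, n = 3). Col2a1, the chain of vitreous and cartilage fibrils, followed at 11.02 ± 1.41 FPKM. Col8a2, a chain of the hexagonal network of Descemet's and Bruch's membranes, was at 10.8 ± 0.49 FPKM. Col9a1, which coats type II fibrils, was at 10.7 ± 0.32 FPKM. The levels of Col2a1, Col8a2 and Col9a1 did not differ beyond their SDs, nor did Col23a1 and Col2a1. Col18a1, whose C-terminal fragment is endostatin, stood at 8.60 ± 0.99 FPKM and Col9a3 at 8.39 ± 0.64 FPKM, again within their SDs. The type I chains were lower, with Col1a2 at 5.06 ± 1.54 FPKM and Col1a1 at 3.05 ± 0.65 FPKM. Summed over genes, the cartilage-type class made up 26.6 to 28.9% of collagen FPKM in AL + PBS, the basement membrane class 18.0 to 20.1% the fibrillar class 8.8 to 11.5% and the 22 other collagens 41.6 to 43.8%. The 6 cartilage-type genes thus outweighed the fibrillar and the basement membrane genes in each of these 3 libraries.

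**Figure D1:**
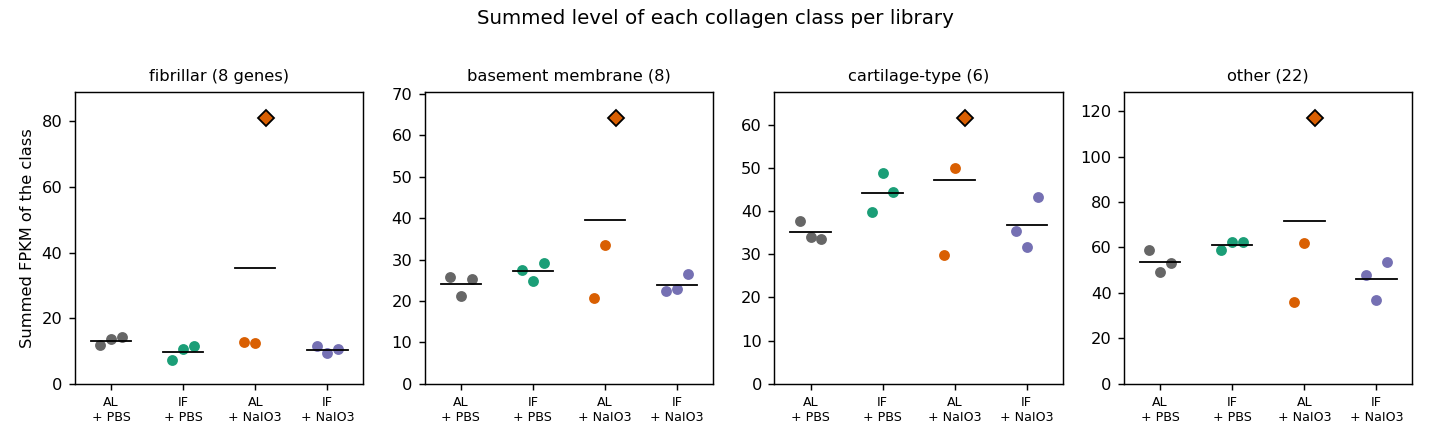
Summed FPKM (y axis, linear from 0) of each collagen class in the 12 libraries by group (x axis), with 1 point per library and the group mean as a line. The diamond marks AL + NaIO3 replicate 3, at 81.0 FPKM for the fibrillar class against 7.11 to 14.1 FPKM in the other 11 libraries.

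No collagen passed the main test in any comparison. The test was edgeR's quasi-likelihood test with Benjamini-Hochberg adjustment over all genes, and a gene was called at an adjusted p under 0.05 with a change of 1.5 times or more. Of all genes it called 0.0% in IF + PBS against AL + PBS and 0.0% in IF + NaIO3 against IF + PBS. It called 0.0769% in AL + NaIO3 against AL + PBS, 0.0383% in IF + NaIO3 against AL + NaIO3 and 0.0313% for the interaction of diet and injection. The count of 0 collagens is therefore close to what all genes gave. At an unadjusted p under 0.05, 11 of 43 collagens stood out in IF + PBS against AL + PBS (17.1% of all genes) and 6 in AL + NaIO3 against AL + PBS (10.2%). There were 8 in IF + NaIO3 against AL + NaIO3 (11.7%), 4 in IF + NaIO3 against IF + PBS (15.2%) and 6 in the interaction (12%). DESeq2, tried as an alternative, called 5, 1, 2, 1 and 1 collagens in the same order, where it called 1.17%, 2.53%, 2.94%, 0.729% and 1.22% of all genes.

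IF + PBS against AL + PBS asked what fasting alone did to the eye. The type I chains were lower and several vitreous and basement membrane chains were higher in fasted eyes, none past the threshold of the main test. By class the median log2 fold change was -0.12 for the fibrillar, 0.29 for the basement membrane, 0.31 for the cartilage-type and 0.14 for the other collagens, beside 0.01 over all genes. Without IF + PBS replicate 1 the fibrillar median turned positive, as the middle genes were Col5a2 at -0.11 and Col5a1 at 0.50. The basement membrane median then fell to between Col4a5 at 0.16 and Col4a3 at 0.21. In 5 of 43 collagens each fasted library was above each AL library (10.6% of all genes), and in 4 each was below (11.2% of all genes). The 5 were Col9a1, Col9a3, Col11a2, Col4a2 and Col15a1, the 4 were Col1a1, Col1a2, Col19a1 and Col25a1, and both shares lie near those of all genes.

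Levels of 1 gene across libraries are given as CPM, counts scaled to library size with TMM factors. Overlap of groups was judged in CPM for collagens, here and above, and in FPKM for cell type markers. Some separations held only in CPM. In FPKM, Col1a1, Col15a1 and Col25a1 overlapped between IF + PBS and AL + PBS. Col4a4, Col9a1 and Col16a1 did so between AL + NaIO3 and AL + PBS, and Col18a1 between IF + NaIO3 and AL + NaIO3. Col1a1, the main chain of type I collagen, was at 16.6, 25.3 and 24.1 CPM in AL + PBS and at 7.99, 11.6 and 16.4 CPM in IF + PBS. In CPM the groups did not overlap, by the small gap between 16.6 and 16.4 CPM. In FPKM they did, at 2.297 in AL + PBS replicate 1 and 2.306 in IF + PBS replicate 3. The log2 fold change was -0.88 ± 0.25 (SE), with adjusted p = 0.188 by edgeR and 0.0176 by DESeq2. Col1a2, its partner chain, was at 20.8, 39.8 and 36.1 CPM in AL + PBS. In IF + PBS it was at 10.2, 15.1 and 20.2 CPM, without overlap on either scale. This was a log2 fold change of -1.09 ± 0.27, with adjusted p = 0.175 by edgeR and 0.00237 by DESeq2. Col3a1, the type III chain of the same fibrils, overlapped between the groups, at 9.28 to 11.7 CPM and 5.39 to 9.69 CPM (log2 fold change -0.49 ± 0.23, edgeR adjusted p = 0.303). Not every fibrillar gene was on the low side. In the fit of all 12 libraries Col1a1, Col1a2, Col3a1 and Col5a2 were on that side. Col5a1 (log2 fold change 0.31), Col5a3 (0.28), Col24a1 (0.25) and Col27a1 (0.62) were on the high side. Col27a1, a fibrillar collagen of developing cartilage, was at 20.6, 10.7 and 12.2 CPM in AL + PBS and 20.1, 26.6 and 20.0 CPM in IF + PBS.

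Some fibroblast markers were lower in the same libraries. Of 9 listed markers, Dcn, Lum, Pdgfra and Dpt lay below each AL + PBS library in each IF + PBS library, and the other 5 overlapped. Their summed level, most of which was Dcn, was 47.8 to 68.6 FPKM in AL + PBS and 23.3 to 40.3 FPKM in IF + PBS. Skeletal muscle markers, which belong to eye muscle outside the sclera, summed to 91.2 to 199.7 FPKM and 15.6 to 67.7 FPKM in the same groups. Of 10 corneal markers, Krt5, Krt14, Aldh3a1 and Perp were lower without overlap and Tkt was higher. The corneal sum overlapped, at 82.8 to 93.4 FPKM and 75.5 to 93.3 FPKM. The part of these lists in the type I collagen result was not tested.

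Of the cartilage-type genes, Col9a1 was at 37.6, 39.5 and 39.7 CPM in AL + PBS and at 56.8, 62.3 and 60.0 CPM in IF + PBS. The libraries within each group lay close together and the groups were far apart. The log2 fold change was 0.62 ± 0.09, with the lowest unadjusted edgeR p among the collagens (3.45e-05) and adjusted p = 0.153. DESeq2 gave adjusted p = 1.99e-05, and over all settings tried the adjusted p ran from 1.99e-05 to 0.526. Col11a2, a chain of the type XI core of these fibrils, was at 2.83 to 3.65 CPM in AL + PBS and 4.72 to 8.36 CPM in IF + PBS (log2 fold change 0.97 ± 0.25, edgeR adjusted p = 0.178, DESeq2 0.0292). Col9a3 was at 27.0 to 30.1 CPM and 31.0 to 36.4 CPM, also without overlap. Col9a2, the third type IX chain, overlapped at 11.7 to 14.4 CPM and 11.6 to 20.6 CPM. Col2a1 was at 55.1 to 67.3 CPM and 50.6 to 69.1 CPM, and Col11a1 at 7.29 to 8.36 CPM and 6.30 to 9.08 CPM. The chains of types II, IX and XI thus did not share 1 direction between these groups.

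Values of other cell types beside these genes were as follows. Cartilage and bone markers summed to 8.97 to 9.5 FPKM in AL + PBS and 8.76 to 9.99 FPKM in IF + PBS, with Matn1 at 0 in all 12 libraries. Ciliary epithelium markers, of the tissue that borders the vitreous, summed to 67.1 to 76.8 FPKM and 68.4 to 74.3 FPKM. Neither sum separated the groups. Those of 3 further lists did, with RPE markers at 944 to 1032 FPKM in AL + PBS and 1051 to 1407 FPKM in IF + PBS, Müller cell and astrocyte markers at 908 to 1012 FPKM and 815 to 838 FPKM, and lens markers at 5.84 to 232.6 FPKM and 1.71 to 2.51 FPKM. Of the 9 RPE markers only Rgr and Rdh5 separated the groups. Ttr, the largest part of that sum, overlapped at 463 to 546 FPKM and 542 to 840 FPKM. Among the single Müller cell and astrocyte markers 3 of 7 were lower without overlap, and among the lens markers 5 of 9. The part of these lists in the collagen values was not tested.

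Among the basement membrane genes, Col4a2 was at 28.9, 24.9 and 27.99 CPM in AL + PBS and at 31.4, 36.6 and 37.6 CPM in IF + PBS, without overlap. On the log2 scale the difference was 0.37 ± 0.11 (edgeR adjusted p = 0.194). Its partner chain Col4a1 overlapped, at 20.6 to 32.4 CPM and 26.3 to 38.0 CPM. Col15a1, a collagen at the border of basement membrane and stroma, was at 2.24 to 3.32 CPM and 3.79 to 4.91 CPM. Its groups did not overlap in CPM but did in FPKM. Of the other collagens, Col7a1, which forms anchoring fibrils, was at 10.2 to 19.8 CPM in AL + PBS and 19.4 to 37.3 CPM in IF + PBS (log2 fold change 0.88 ± 0.27, edgeR adjusted p = 0.195, DESeq2 0.0259). Its groups overlapped. Col19a1, a fibril-associated collagen, was at 9.28, 7.53 and 10.2 CPM in AL + PBS and at 6.16, 4.47 and 6.27 CPM in IF + PBS. The groups did not overlap (log2 fold change -0.68 ± 0.20, edgeR adjusted p = 0.194). Without IF + PBS replicate 1, edgeR called Col11a2 (log2 fold change 1.16), Col7a1 (1.06) and Col9a1 (0.65), where it called 3.03% of all genes.

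**Figure D2:**
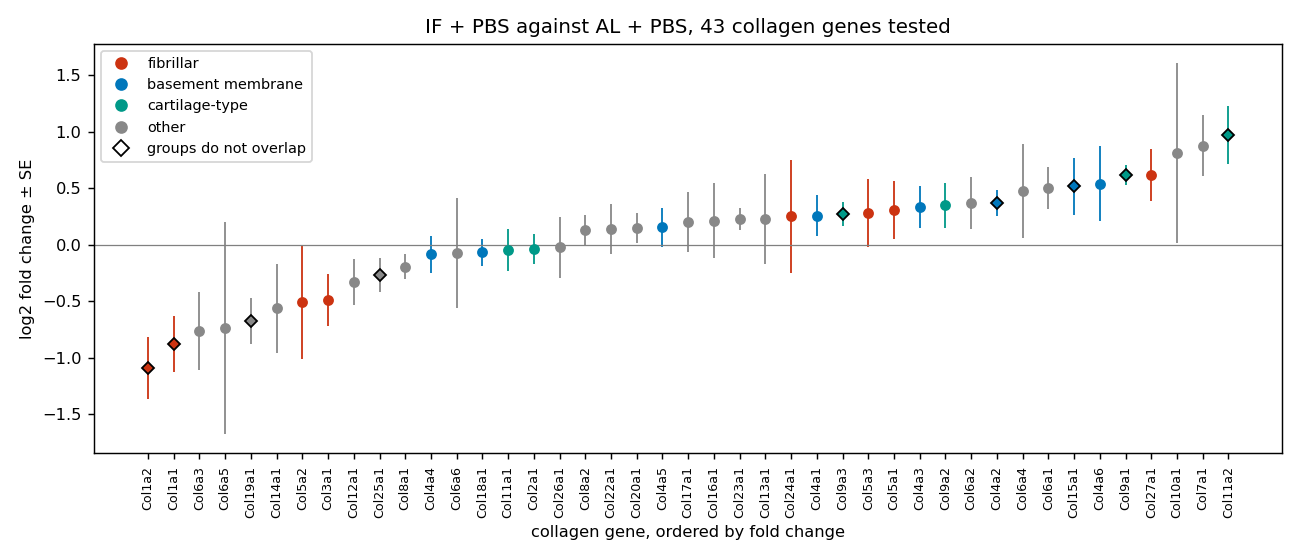
Log2 fold change with its standard error (y axis) of the 43 collagen genes tested in IF + PBS against AL + PBS. Genes are ordered along the x axis and coloured by class. Diamonds mark genes where the 3 libraries of 1 group all lie on one side of the other 3 in CPM. Col1a2 lies at the low end at -1.09 and Col11a2 at the high end at 0.97.

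AL + NaIO3 against AL + PBS asked what the oxidant did on free feeding. The fibrillar class had a median log2 fold change of 1.13 with all 8 genes on the high side, but the summed fibrillar FPKM of replicates 1 and 2 (12.6 and 12.3) lay within the 11.8 to 14.1 FPKM of AL + PBS, and that of replicate 3 was 81.0 FPKM. Without replicate 3 the fibrillar median was 0.09, with 5 of 8 genes on the high side. The basement membrane median was 0.79 with and 0.16 without that library, the cartilage-type median 0.39 and 0.07, and that of the other collagens 0.23 and -0.16. Over all genes tested it was 0.01 and 0.003. At an unadjusted p under 0.05 there were 4 of 43 collagens without the library (Col5a3, Col8a1, Col8a2 and Col17a1), where 12.2% of all genes stood out.

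Col1a1 was at 18.7, 12.7 and 152.9 CPM in AL + NaIO3. The first 2 values are within or below the AL + PBS range of 16.6 to 25.3 CPM. A log2 fold change of 1.504 ± 0.85 (edgeR adjusted p = 0.583) turned to -0.49 ± 0.23 (adjusted p = 0.450) without replicate 3. Col1a2 was at 34.4, 17.8 and 187.2 CPM, and its log2 fold change of 1.33 ± 0.77 turned to -0.30 ± 0.32 without replicate 3. Col3a1 was at 14.5, 8.85 and 71.6 CPM (log2 fold change 1.67 ± 0.70, edgeR adjusted p = 0.475) and kept its direction at 0.21 ± 0.24. Relative to the median of the other 11 libraries, replicate 3 held 9.34 times the Col1a1 level and 9.27 times that of Col1a2. Over the fibrillar class the median ratio was 5.30, from 1.06 for Col27a1 to 9.34. It was 2.74 for basement membrane, 1.39 for cartilage-type and 1.75 for other collagens, and 0.99 over all genes. More than a 2-fold ratio was seen in 51.2% of collagens and in 14.0% of all genes.

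The fibrillar gene with the lowest unadjusted p here was Col5a3, a regulatory chain of type V, at 4.39, 7.57 and 6.83 CPM against 3.07, 2.97 and 3.84 CPM. Its groups did not overlap, and it was about as high without replicate 3 (log2 fold change 0.94 ± 0.31 with and 0.86 ± 0.31 without, edgeR adjusted p = 0.357 and 0.321). In CPM, 6 collagens lay above each control library (9.67% of all genes) and 0 below (8.64% of all genes). The 6 were Col5a3, Col4a4, Col9a1, Col9a2, Col16a1 and Col17a1. Of these Col4a4, Col9a1 and Col16a1 overlapped in FPKM. Col17a1, the hemidesmosome collagen of epithelia such as the cornea, was at 5.36, 24.96 and 9.30 CPM against 2.72 to 4.61 CPM, which gave 1.82 ± 0.55 on the log2 scale (edgeR adjusted p = 0.321, DESeq2 0.0182), and 2.01 ± 0.54 without replicate 3. The value of 24.96 CPM came from replicate 2. In that library the corneal keratin Krt12 was at 69.1 FPKM and Krt5 at 71.5 FPKM, against at most 4.10 and 19.4 FPKM in the other 11. The 10 corneal markers summed to 309 FPKM against 75.5 to 113 FPKM. Krt14, Aldh3a1, Trp63, Dsg1a and Perp were also highest in that library. Kera (0.034 FPKM), Gjb6 (0.43 FPKM) and Tkt (83.4 FPKM) were not. The part of these markers in the Col17a1 result was not tested.

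**Figure D3:**
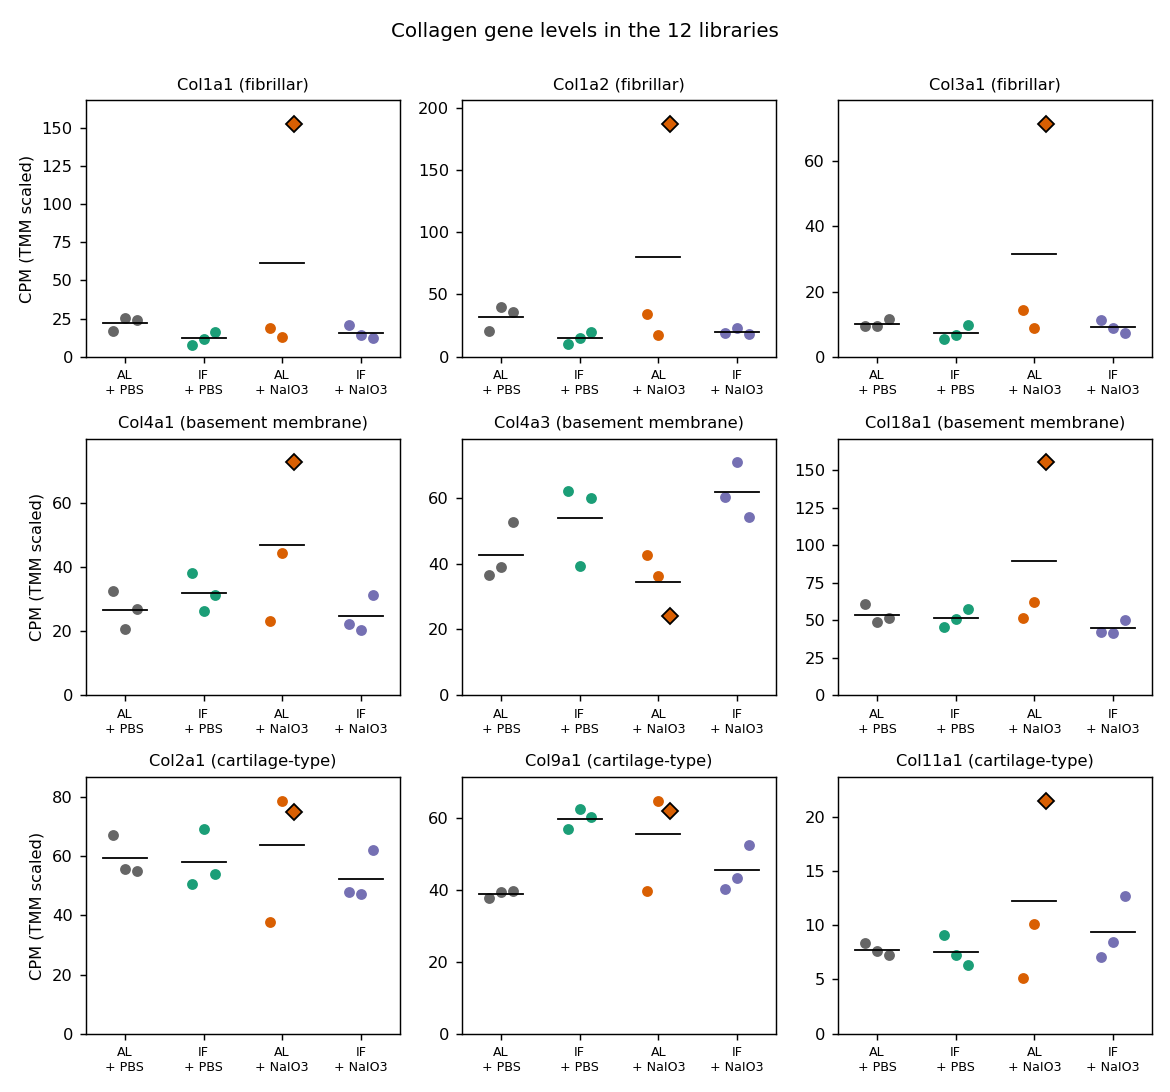
TMM-scaled CPM (y axis, linear from 0) of 3 fibrillar, 3 basement membrane and 3 cartilage-type genes in the 12 libraries by group (x axis), with 1 point per library and the group mean as a line. The diamond marks AL + NaIO3 replicate 3, at 152.9 CPM for Col1a1 but at 24.2 CPM, the lowest of the 12 libraries, for Col4a3.

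The basement membrane genes of AL + NaIO3 did not share 1 direction. Col18a1 was at 51.2, 62.4 and 155 CPM against 49.0 to 60.5 CPM in AL + PBS (log2 fold change 0.76 ± 0.39, and 0.08 ± 0.14 without replicate 3). Col4a1 was at 23.1, 44.3 and 72.7 CPM against 20.6 to 32.4 CPM, a log2 difference of 0.83 ± 0.38 (edgeR adjusted p = 0.509). Col4a2 was at 17.5, 44.4 and 63.0 CPM against 24.9 to 28.9 CPM (0.63 ± 0.39). Without replicate 3 the values were 0.34 ± 0.28 and 0.18 ± 0.32. Both chains were below or within the control range in replicate 1 and above it in replicates 2 and 3. Col4a6 was at 2.08, 4.91 and 11.7 CPM against 1.37 to 2.40 CPM (log2 fold change 1.79 ± 0.61, edgeR adjusted p = 0.372, and 0.93 ± 0.45 without replicate 3). Col4a3 went the other way in replicate 3, at 42.6, 36.2 and 24.2 CPM against 36.4 to 52.8 CPM, while Col4a4 stayed between 29.0 and 32.7 CPM, just above the 24.0 to 28.2 CPM of AL + PBS. Endothelial markers summed to 51.3, 60.3 and 112.9 FPKM in AL + NaIO3, above the 43.8 to 49.2 FPKM of AL + PBS and the 40.0 to 49.5 FPKM of IF + NaIO3 in each library. Kdr held 23.9, 28.6 and 58.4 FPKM of these sums. Of the 8 markers, only Pecam1 and Kdr separated AL + NaIO3 from AL + PBS, and only Kdr from IF + NaIO3. Emcn was at 1.02 and 0.70 FPKM in replicates 1 and 2, below the 1.14 to 1.61 FPKM of AL + PBS. The part of these markers in the basement membrane values was not tested.

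Of the cartilage-type genes, Col9a1 was at 39.7, 64.7 and 61.9 CPM in AL + NaIO3, with replicate 1 only just above the highest control at 39.7 CPM. The fitted log2 fold change was 0.52 ± 0.19 (edgeR adjusted p = 0.403), and 0.42 ± 0.19 without replicate 3. Col9a2 was at 14.8, 17.7 and 18.3 CPM against 11.7 to 14.4 CPM. Cartilage and bone markers summed to 10.8 to 14.7 FPKM in AL + NaIO3, above the 8.97 to 9.5 FPKM of AL + PBS and the 10.05 to 10.72 FPKM of IF + NaIO3. Matn1 was at 0 and Acan at most at 0.091 FPKM in all 12 libraries. Most of the sum was Cnmd, at 8.03, 8.98 and 13.5 FPKM in AL + NaIO3. Of the 8 markers, 0 separated AL + NaIO3 from AL + PBS. Against IF + NaIO3, Cnmd was higher without overlap and Ucma lower, at 0.20 to 1.43 FPKM against 2.01 to 2.18 FPKM. The part of these markers in the cartilage-type values was not tested. Col2a1 was at 37.9, 78.8 and 74.8 CPM, so that its lowest and highest library both belonged to this group. Col11a1 and Col9a3 were highest of all 12 libraries in replicate 3, Col11a1 at 21.5 CPM against 5.13 and 10.1 CPM in the other two and Col9a3 at 47.2 CPM against 29.5 and 26.7 CPM. In the share of collagen FPKM, the fibrillar class reached 25.03% in replicate 3 against 5.3 to 12.7% in the other 11 libraries, and the cartilage-type class was at 19.0% against 26.6 to 33.4%.

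Of the other collagens, the type VIII chains lay on opposite sides of the controls in replicate 3 and in the other two libraries. Col8a2 was at 31.7, 24.8 and 96.7 CPM in AL + NaIO3 against 56.3, 55.1 and 59.1 CPM in AL + PBS. The first 2 libraries were below each control and the last above. With 3 libraries the log2 fold change was -0.13 ± 0.46 (edgeR adjusted p = 0.946). Without replicate 3 it was -1.01 ± 0.13 and passed the test (adjusted p = 0.0179), on 2 injected libraries, where 0.572% of all genes were called, and a fit of 11 libraries together gave adjusted p = 0.0795. Over all settings its adjusted p ran from 0.0179 to 0.997. Col8a1, the partner chain, was at 35.2, 26.3 and 105 CPM against 41.7 to 45.4 CPM, the same order of libraries. Col23a1 was at 68.3, 103 and 135.8 CPM against 78.8 to 86.0 CPM, and Col6a1, a chain of beaded filaments, at 14.8, 53.9 and 60.5 CPM against 29.8 to 47.4 CPM.

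IF + NaIO3 against AL + NaIO3 asked whether fasting altered the injured eye. It shares the AL + NaIO3 libraries with the comparison above, so replicate 3 enters it with the opposite sign. The class medians were -0.99, -0.81, -0.30 and -0.43 for fibrillar, basement membrane, cartilage-type and other collagens, and -0.01, -0.21, 0.06 and 0.04 without replicate 3. At an unadjusted p under 0.05 there were 4 of 43 collagens without it (Col4a3, Col4a6, Col17a1 and Col18a1), where 9.29% of all genes stood out. In IF + NaIO3 Col1a1 was at 20.5, 14.0 and 12.4 CPM. Its log2 fold change was -1.996 ± 0.86 (edgeR adjusted p = 0.426) and -0.02 ± 0.26 without replicate 3. Col1a2 was at 18.8, 23.0 and 18.1 CPM (log2 fold change -2.02 ± 0.76, and -0.40 ± 0.26 without replicate 3). Col3a1 was at 11.2, 8.90 and 7.31 CPM (-1.82 ± 0.70, and -0.37 ± 0.27 without).

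**Figure D4:**
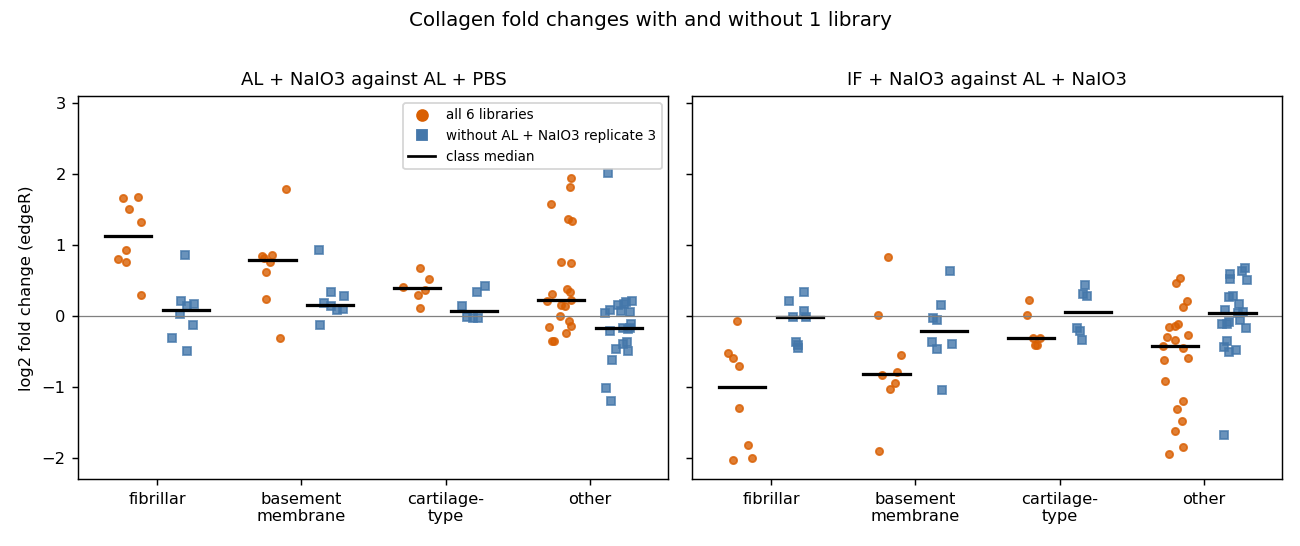
Log2 fold change (y axis) of each tested collagen by class (x axis) for AL + NaIO3 against AL + PBS and IF + NaIO3 against AL + NaIO3, with circles for all 6 libraries, squares without AL + NaIO3 replicate 3 and lines for class medians. The fibrillar median moves from 1.13 to 0.09 in the first comparison and from -0.99 to -0.01 in the second.

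Col4a3, a chain of the kidney, lens and retinal type of basement membrane, was at 60.4, 70.9 and 54.4 CPM in IF + NaIO3 against 42.6, 36.2 and 24.2 CPM. The groups did not overlap, and it was the 1 collagen above each AL + NaIO3 library (8.88% of all genes). Its log2 fold change was 0.84 ± 0.21 (edgeR adjusted p = 0.236, DESeq2 0.0204) and 0.64 ± 0.15 (adjusted p = 0.157) without replicate 3. In 3 collagens each IF + NaIO3 library lay below each AL + NaIO3 library (10.1% of all genes): Col4a6, Col18a1 and Col9a2. Col4a6 was at 1.75, 1.65 and 1.70 CPM, a narrow range, which gave -1.90 ± 0.59 on the log2 scale (edgeR adjusted p = 0.306, DESeq2 0.0319) and -1.05 ± 0.42 without replicate 3. Col18a1 was at 42.3, 41.3 and 50.3 CPM (-1.03 ± 0.39, and -0.36 ± 0.14 without), and its groups overlapped in FPKM. Col9a2 was at 13.6, 11.8 and 13.5 CPM (log2 fold change -0.40 ± 0.18, edgeR adjusted p = 0.445, and -0.34 ± 0.18 without replicate 3). Among the other collagens Col17a1 had the lowest unadjusted p, at 7.83, 2.34 and 4.19 CPM (-1.47 ± 0.63, edgeR adjusted p = 0.421, and -1.67 ± 0.62 without replicate 3), with the corneal values of AL + NaIO3 replicate 2 given above.

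IF + NaIO3 against IF + PBS, the effect of NaIO3 in fasted eyes, does not contain AL + NaIO3 replicate 3. The class medians were 0.24 for the fibrillar, -0.28 for the basement membrane, -0.24 for the cartilage-type and -0.21 for the other collagens, beside 0.001 over all genes. Without IF + PBS replicate 1 the fibrillar median fell to between Col5a3 at -0.11 and Col1a1 at 0.17. In 5 collagens each NaIO3 library lay below each PBS library (10.9% of all genes) and in 0 above (10.1% of all genes). Col8a2 was at 40.6, 21.9 and 40.5 CPM against 69.9, 48.0 and 68.4 CPM. Its log2 fold change was -0.85 ± 0.23 (edgeR adjusted p = 0.212, DESeq2 0.00831). The Col8a2 levels of the IF + NaIO3 libraries and of replicates 1 and 2 of AL + NaIO3 were thus all below each PBS library of either diet. RPE markers summed to 543 to 713 FPKM in AL + NaIO3 and 508 to 974 FPKM in IF + NaIO3, against 944 to 1407 FPKM with PBS. IF + NaIO3 replicate 2 was the lowest library for both Col8a2 and this sum. AL + NaIO3 replicate 3 also had a low sum (713 FPKM) but the highest Col8a2 of all libraries (96.7 CPM). Under each diet 5 of the 9 RPE markers were lower without overlap after NaIO3, and the others overlapped. Their part in the Col8a2 values was not tested. Col4a2 was at 19.9, 23.6 and 27.5 CPM against 31.4, 36.6 and 37.6 CPM (log2 fold change -0.57 ± 0.14, edgeR adjusted p = 0.212). Without IF + PBS replicate 1 Col4a2 passed the test (log2 fold change -0.64, adjusted p = 0.0446), where 1.27% of all genes were called. Col9a1 was at 40.1, 43.4 and 52.5 CPM against 56.8, 62.3 and 60.0 CPM (-0.39 ± 0.11, edgeR adjusted p = 0.220). Col6a1 and Col4a6 were the other two, Col6a1 at 38.3, 26.5 and 42.1 CPM against 44.9, 65.5 and 47.6 CPM. Beside Col9a1, ciliary epithelium markers summed to 60.5 to 63.9 FPKM in IF + NaIO3 against 68.4 to 74.3 FPKM in IF + PBS. Cartilage and bone markers summed to 10.05 to 10.72 FPKM against 8.76 to 9.99 FPKM. Of the single markers only Aqp1 and Sp7 separated the groups, both lower. The part of these lists in the Col9a1 values was not tested. The fibrillar gene with the lowest unadjusted p was Col27a1, at 18.4, 12.6 and 20.2 CPM against 20.1, 26.6 and 20.0 CPM, with overlap (-0.38 ± 0.19, edgeR adjusted p = 0.375).

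The interaction of diet and injection tests whether the NaIO3 difference depended on diet. Its median over 43 collagens was -0.74 on the log2 scale, with 37 of 43 below 0, beside -0.02 over all genes. Without AL + NaIO3 replicate 3 the median was -0.06 and 25 of 43 were below 0. Col9a1 had an interaction of -0.91 ± 0.23 (edgeR adjusted p = 0.223, DESeq2 0.0314), and -0.83 ± 0.23 (edgeR adjusted p = 0.257) without AL + NaIO3 replicate 3. Leaving out AL + NaIO3 replicate 1, edgeR called 5 of 44 collagens, Col4a1, Col4a2, Col4a6, Col9a1 and Col23a1, where it called 2.26% of all genes.

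The 6 type IV chains lie as 3 back-to-back pairs, whose protein chains assemble into shared trimers. Within a pair, the log2 ratio of CPM was followed across libraries (counts, not per length, so only changes of the ratio can be read). Col4a1 over Col4a2 stayed between -0.47 and 0.40 in the 12 libraries, and the groups overlapped. These genes overlap by 22 bases at their starts, and the kit is stranded by its name in the labels, but whether strand was used in counting is not given in the sources used here. Col4a3 over Col4a4, with the 71 bases between them printed above, ran from 0.42 to 0.90 in AL + PBS, from 0.94 to 1.39 in IF + PBS and from 0.62 to 1.18 in IF + NaIO3. In AL + NaIO3 it was 0.42, 0.14 and -0.26, at or below the lowest library of the other groups. Col4a5 over Col4a6, with 1308 bases between them, was 2.16, 1.74 and 1.66 in AL + NaIO3 against 2.47 to 2.85 in AL + PBS and 2.90 to 3.34 in IF + NaIO3, with no overlap. In IF + PBS it ran from 1.90 to 2.75. The lower Col4a5 over Col4a6 ratio was thus seen in all 3 AL + NaIO3 libraries, while for Col4a3 over Col4a4 replicate 1 stood level with the lowest control. Across the 12 libraries Pearson's r of log2 CPM was 0.87, 0.16 and 0.82 for the 3 pairs, values that share library depth and composition.

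**Figure D5:**
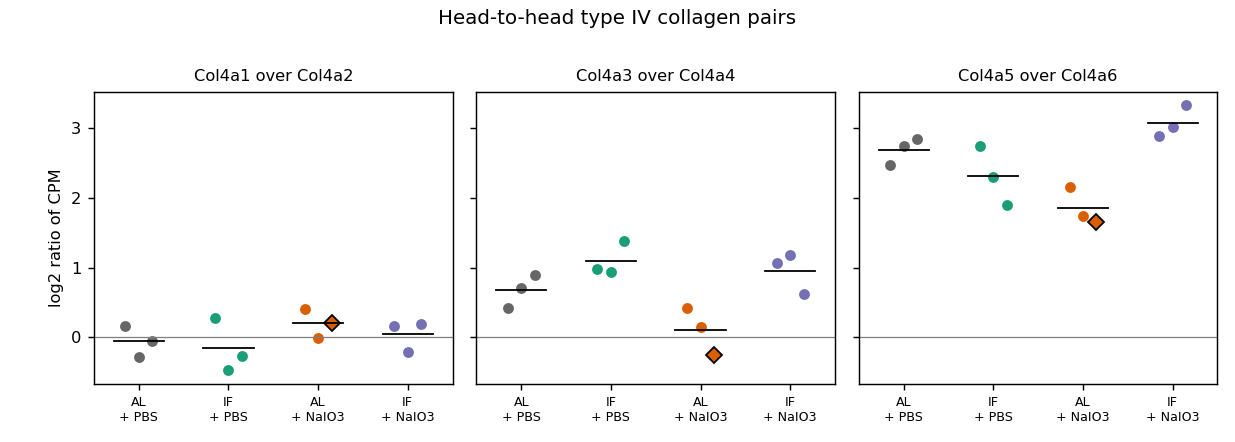
Log2 ratio of CPM (y axis) of the 3 back-to-back type IV collagen pairs in the 12 libraries by group (x axis), with 1 point per library and the group mean as a line. The diamond is AL + NaIO3 replicate 3. Col4a5 over Col4a6 lies at 1.66 to 2.16 in AL + NaIO3 and at 2.90 to 3.34 in IF + NaIO3.

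Genes that make, cross-link, bind or cut collagen were counted in 7 lists, and the main test called 0 of them in any comparison. DESeq2 called Dcn (adjusted p = 2.54e-07) and Lum (0.0377), fibril-binding proteoglycans, both lower in IF + PBS than in AL + PBS. It called Bmp1 (0.0105), Lair1 (0.0292), Lama2 (0.0467) and Timp1 (0.0445) higher in AL + NaIO3 than in AL + PBS. For IF + NaIO3 against AL + NaIO3 it called Mmp14 (0.0240), Optc (0.0256), Sox9 (0.0230) and Timp1 (6.99e-17), all lower. Dcn was higher in IF + NaIO3 than in IF + PBS (DESeq2 adjusted p = 0.0142), and P4ha1 (0.0113) and Timp1 (0.0499) were called in the interaction. The shares of all genes that DESeq2 called are those given for the collagens. Of 17 genes of collagen modification and folding, 13 were on the high side in AL + NaIO3 against AL + PBS, with a median of 0.04 that was -0.05 without replicate 3. P4ha1, a subunit of the prolyl hydroxylase that stabilises the helix, was at 66.7, 58.3 and 61.1 CPM in AL + NaIO3, below the 79.9 to 82.2 CPM of AL + PBS and the 85.1 to 98.1 CPM of IF + NaIO3. The 3 injected AL libraries lay close together, with a log2 fold change of -0.38 (edgeR adjusted p = 0.286) and, for IF + NaIO3 against AL + NaIO3, 0.58 (adjusted p = 0.168), and -0.38 and 0.57 without replicate 3. The 12 fibril-associated proteoglycans had a median of 1.28 in AL + NaIO3 against AL + PBS and of -0.26 without replicate 3. Those of propeptide removal and cross-linking had 0.74 and 0.05, laminins and partners 0.77 and 0.09, collagen receptors 0.89 and 0.27, cleaving enzymes and inhibitors 0.66 and 0.14, and cartilage and vitreous partners 0.60 and 0.17. Apart from the modification list, whose median was near that of all genes either way, the lists lay closer to the median of all genes without the library.

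Timp1, an inhibitor of the collagen-cleaving metalloproteinases, did not follow that order. It was at 13.1, 8.85 and 20.3 CPM in AL + NaIO3 and at most 1.117 CPM in the other 9 libraries. Its log2 fold change was 4.54 against AL + PBS (edgeR adjusted p = 0.193), and -4.71 for IF + NaIO3 against AL + NaIO3 (edgeR adjusted p = 0.0643, DESeq2 6.99e-17). Without replicate 3 the first was 4.16 (adjusted p = 0.0852) and the second passed the test at -4.35 (adjusted p = 0.0115), where 0.476% of all genes were called. Lox, which cross-links collagen, was at 16.4 CPM in replicate 3 and at most 2.33 CPM elsewhere, and Lama2, a laminin chain of muscle and vessel basement membranes, at 16.7 CPM and at most 4.55 CPM. Bmp1, which removes the C-terminal propeptide of fibrillar collagens, was at 21.5, 35.7 and 68.7 CPM in AL + NaIO3 against 15.3 to 17.8 CPM in AL + PBS (log2 fold change 1.39, edgeR adjusted p = 0.286, and 0.82 without replicate 3). Lair1, an inhibitory collagen receptor of leukocytes, was at 10.6, 18.0 and 15.5 CPM against 7.23 to 8.47 CPM (0.89, edgeR adjusted p = 0.284, and 0.84 without replicate 3). Sox9, the factor that drives Col2a1 in cartilage, was at 50.2, 48.0 and 57.6 CPM against 34.6 to 43.8 CPM in AL + PBS and 30.0 to 38.7 CPM in IF + NaIO3. Optc, a proteoglycan of the vitreous, was at 19.4, 18.8 and 36.0 CPM against 9.72 to 13.6 CPM in IF + NaIO3 (log2 fold change -1.05, edgeR adjusted p = 0.266, and -0.67 without replicate 3). Timp1, Lair1, Sox9 and Bmp1 were thus above each AL + PBS library in all 3 AL + NaIO3 libraries, as were 9.67% of all genes. Macrophage and microglia markers moved with them, at 66.9 to 199.8 FPKM in AL + NaIO3 against 16.1 to 26.4 FPKM in the other 3 groups. Of the 7 Müller cell and astrocyte markers, Gfap was at 32.9, 32.2 and 110 FPKM in AL + NaIO3 against at most 7.06 FPKM elsewhere, and Vim at 78.2, 87.8 and 142 FPKM against at most 52.8 FPKM. Glul, of the same list, was below each AL + PBS library, and the list's sum overlapped, at 806 to 1161 FPKM against 908 to 1012 FPKM. The part of either list in these values was not tested.

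Some members were too low or too entangled to read further. Col28a1 had 0 to 44 counts and was left out of each main test by the filter on low counts, so 43 of 44 members were tested there. It passed the filter in some fits with a library left out. Col10a1 reached at most 3.21 CPM, and Col6a5 at most 0.72 CPM. Col18a1 overlaps Slc19a1, Col9a3 overlaps Tcfl5 and Col10a1 overlaps Nt5dc1 in the files' coordinates, and reads of overlapping genes may be divided.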

How the data were processed

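Poly-A selected RNA of 12 eye cup samples was sequenced by the authors, whose labels name HISAT2, StringTie, DESeq2 and edgeR and the build GRCm39; the gene coordinates in the files match GRCm38. The deposited counts are whole reads per gene without normalization. The FPKM values were computed by the authors from counts, gene length and library size, and serve here for levels between genes. The counting tool, and whether strand was used, are not given in the sources used here. A further deposited table holds the authors' own fold changes and p-values for IF + NaIO3 against AL + NaIO3 and was not used.

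Counts were tested in R 4.3.3 with edgeR 4.0.16 (TMM factors, filterByExpr, quasi-likelihood test) on the 6 libraries of the groups compared, over all genes, and the interaction on 12 libraries. Calls needed an adjusted p under 0.05 and, between groups, a fold of at least 1.5. Depth was 26364665 to 43046950 counts per library, so abundant genes are limited by the spread between mice and genes near 3 counts by counting error. The alternatives were DESeq2 1.42.0, upper quartile scaling, other filters on low counts, all 12 libraries in one fit, the replicate block, no fold threshold and each library left out, and, chosen after seeing the data, 11 libraries in one fit. The scripts were tested on simulated data.

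The collagens and lists were chosen with earlier results of these data known. Named are collagens called, the lowest p per class and comparison, the 3 highest in FPKM per class, the cartilage-type and type IV genes, Col1a1, Col1a2, Col3a1 and Col18a1, and, of each list, called genes or else the lowest p in both comparisons with AL + NaIO3. Other genes were named after their values were seen, among them Col7a1, Col8a1, Col15a1 and Col16a1.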

Additional observations from a re-analysis of the deposited data

Results flagged for a closer look

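In CPM, Col9a1 lay in opposite directions after NaIO3 under the 2 diets. On that scale each AL + NaIO3 library lay above each AL + PBS library. The margin was smallest in replicate 1, at 39.7 CPM in both the lowest injected and the highest control library. In FPKM this separation was lost, as AL + NaIO3 replicate 1 lay below each AL + PBS library. Each IF + NaIO3 library lay below each IF + PBS library on both scales. The difference between the diets was tested as the interaction of diet and injection, at -0.91 ± 0.23 on the log2 scale (unadjusted p = 0.0016, edgeR adjusted p = 0.223), and did not pass. DESeq2 gave adjusted p = 0.0314 and edgeR without AL + NaIO3 replicate 1 gave 0.0154, and over all settings it ran from 0.0154 to 0.498.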

How the results depend on the processing

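Against 0 collagens called in each main test, DESeq2 called 5 in IF + PBS against AL + PBS, 1 in AL + NaIO3 against AL + PBS, 2 in IF + NaIO3 against AL + NaIO3, 1 in IF + NaIO3 against IF + PBS and 1 in the interaction. With each library left out in turn the counts ran from 0 to 3, 0 to 1, 0, 0 to 1 and 0 to 5 in that order; the libraries that gave calls were IF + PBS replicate 1, AL + NaIO3 replicate 3, and, in the interaction, AL + NaIO3 replicate 1. Where collagens were called this way, the share of all genes called was 3.03% and 1.27% without IF + PBS replicate 1, 0.572% without AL + NaIO3 replicate 3 and 2.26% in the interaction. Upper quartile scaling, both filters, the fit of 12 libraries, no fold threshold and the 11-library fit gave 0 calls. The replicate number as a block also gave 0 calls in each comparison. Same-numbered libraries of different groups did not deviate together (correlations from -0.101 to 0.138, over 0.1 in 1 of 12 pairs). A differently numbered pair reached 0.143. The check showed no pairing by number, and with 3 libraries in each group it cannot exclude one.

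Class medians moved by more than the spread between libraries chiefly with AL + NaIO3 replicate 3. In AL + NaIO3 against AL + PBS the leave-one-out ranges were 0.090 to 1.43 (fibrillar), 0.16 to 1.09 (basement membrane) and 0.070 to 0.57 (cartilage-type), and the 11-library fit gave 0.10 and 0.17 for the first 2. In IF + NaIO3 against AL + NaIO3 they were -1.38 to -0.013 (fibrillar) and -0.49 to 0.062 (cartilage-type), and the 11-library fit gave -0.0079 and 0.065. The other collagens in IF + PBS against AL + PBS ran from 0.031 to 0.25. The fibrillar median also depended on IF + PBS replicate 1. Without that library it turned positive in IF + PBS against AL + PBS and fell in IF + NaIO3 against IF + PBS, as given above. In AL + NaIO3 against AL + PBS, Col1a1 turned to -0.48 and Col1a2 to -0.30 in the 11-library fit, with leave-one-out ranges of -0.49 to 1.98 and -0.30 to 1.801, and Col8a2 ran from -1.01 to 0.19. The low-count members, such as Col28a1 and Col6a5, are limited by depth.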
